A study of Mus musculus with 17 samples.

Results

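The genes described here, 10 in number, carry the cyclic AMP (cAMP) signal in striatal neurons: Ppp1r1b, Adcy5, Gnal, Gng7, Pde10a, Pde1b, Pde7b, Rgs9, Rgs2 and Rgs4. Peaks of open chromatin were assigned to a gene if they overlapped its GENCODE gene body in mm10, extended by 20 kb on each side. Of 147420 regions of open chromatin kept over the 17 libraries, 255 lay in the windows of the 10 genes, and 74 of these were called in every library, of 36847 such regions in all. The rule uses gene names and positions and no measured value.

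The study asked how a single dose of cocaine alters neuronal chromatin in each sex and estrous stage. ATAC-seq, in which a transposase cuts open DNA, was run on nuclei of the nucleus accumbens, the ventral part of the striatum, from C57BL/6 mice (C57BL/6J in the study's methods) aged 52 to 54 days. Neuronal nuclei were sorted with an antibody against NeuN, a nuclear protein of neurons, and each library pooled 3 animals. Cocaine mice received 10 mg/kg intraperitoneally and were killed after 1 hour, while controls received no cocaine. No injection is described for the controls, so injection and cocaine cannot be told apart. Diestrus and proestrus females each gave 3 control and 3 cocaine libraries, and males gave 3 control and 2 cocaine libraries. Diestrus is the stage with lower and proestrus the stage with higher estrogen. For diestrus cocaine 2 the submitters left the stage field empty, so its title placed it. Proestrus cocaine libraries carry the numbers 1, 2 and 4.

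In medium spiny neurons, the projection neurons of the striatum, dopamine D1 receptors act through the G protein that holds the alpha subunit encoded by Gnal and the gamma subunit encoded by Gng7. This G protein drives the adenylyl cyclase encoded by Adcy5, which makes cAMP and so activates protein kinase A (PKA). PKA phosphorylates DARPP-32, the product of Ppp1r1b, which then inhibits protein phosphatase 1. The phosphodiesterases Pde10a, Pde1b and Pde7b break cyclic nucleotides down, and Rgs9, Rgs2 and Rgs4 encode regulators of G protein signalling that speed the shut-off of G proteins.

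The promoters of the neuronal genes Rbfox3, Snap25 and Syt1 were called in all 17 libraries, as were 7 of 8 promoters of medium spiny neuron genes, with Pdyn called in 16. Of other cell types, promoters called in every library were those of Slc17a7, a marker of cortical excitatory neurons, and of Mbp, an oligodendrocyte gene. Among the remaining markers of interneurons, astrocytes, oligodendrocytes, microglia and endothelium, promoters of Chat, Sst, Npy, Gfap, Aldh1l1, Slc1a3, Mog, Mag, Sox10, Cx3cr1, Cldn5 and Flt1 were called in no library. Libraries held 75458 to 157005 peaks, and the 2 male cocaine libraries held the fewest. Median fold enrichment at regions called everywhere ran from 5.35 to 8.03, so fold enrichment was quantile-normalized before libraries were compared. The median was 7.44 to 8.03 in male controls, 5.6 to 5.97 in proestrus controls, and 5.35 and 5.58 in the male cocaine libraries. Comparisons that involve these groups therefore depend on the normalization. The promoters of Csf1r, Aif1 and P2ry12 (microglia), Pecam1 (endothelium), Aqp4 (astrocytes), Pvalb (interneurons) and Tbr1 and Neurod6 (cortical neurons) were called in 4 to 13 libraries.

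All 10 genes had large open stretches in these neurons. The share of the gene body under peaks, as the median over the 17 libraries, was 97.7% at Rgs2, 87.3% at Pde1b, 86.9% at Ppp1r1b and 80.5% at Adcy5. It was 55% at Gng7, 49.1% at Rgs9, 45.7% at Gnal, 45.3% at Rgs4 and 41.1% at Pde10a, and lowest at Pde7b with 19.5%. Among all 21728 genes these shares lay between percentile 86.9 for Pde7b and percentile 99.1 for Rgs2. Because short genes are covered by a single promoter peak, the members were also ranked among genes within 2-fold of their length, where the percentiles ran from 91.37 for Rgs4 to 99.96 for Adcy5. The stretches could be very wide. The widest peak of Pde10a was 59.3 kb and that of Adcy5 was 32.2 kb, both in proestrus control library 3, while the widest peak of Rgs4 was 5.91 kb.

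**Figure D1:**
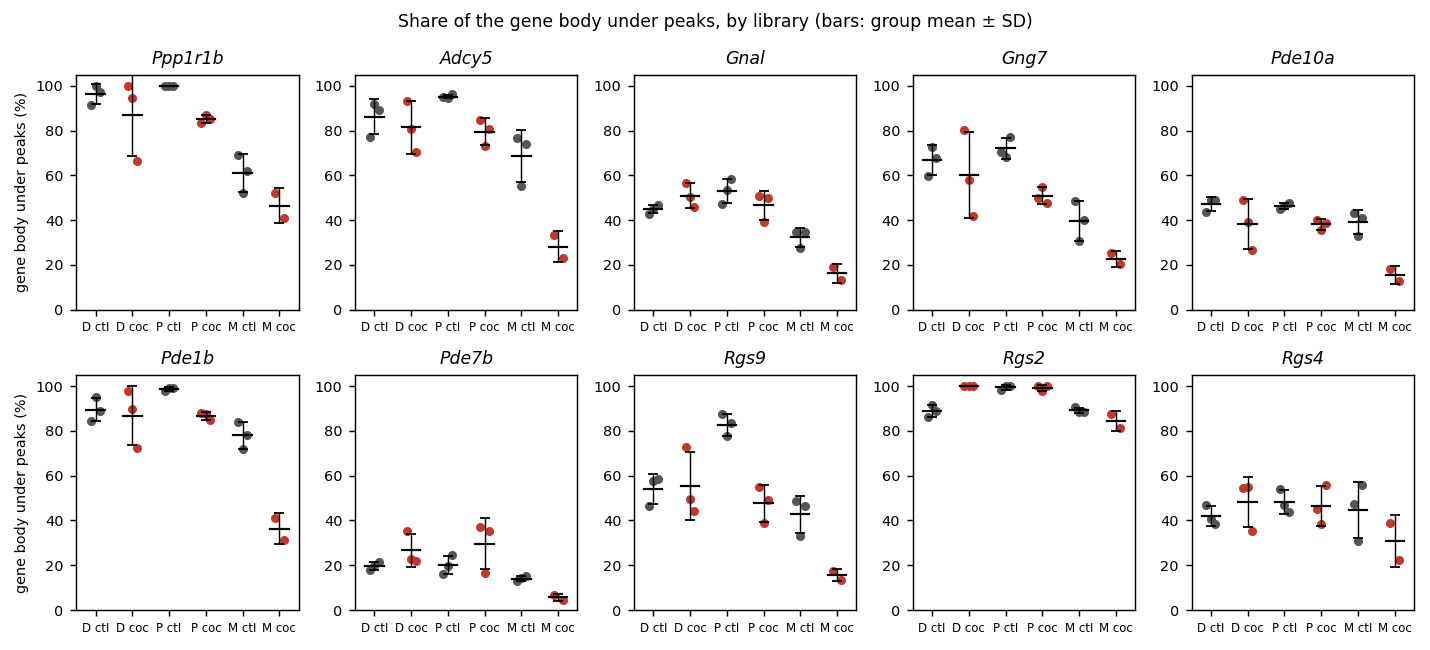
Share of each gene body under peaks (%, vertical axis) in every library, for the 10 genes; D, P and M stand for diestrus, proestrus and male, grey points are control and red points cocaine libraries, and bars give the group mean ± SD. The 2 male cocaine libraries are the lowest at 8 of the 10 genes, all but Rgs2 and Rgs4, and Rgs2 lies above 80% in every library. The same 2 libraries also had the lowest median share over genes in general, 8.09% in male cocaine 1 and 6.75% in male cocaine 2. The next lowest was 9.54%, in diestrus cocaine 3. The low values of these 2 libraries therefore do not set the 10 genes apart from other genes.

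Most of the open regions were in introns. Of the 255 regions, 165 had their tallest summit in an intron, 30 upstream and 15 downstream of the gene, 11 within 1 kb of a transcription start of the gene, 6 in an exon and 3 in a UTR exon. A further 25 had it inside or at the promoter of a neighbouring gene such as Stard3, Nckap1l or Mppe1, and peaks there cannot be assigned to one of the genes from position alone. All 11 promoter regions were called in all 17 libraries, with a median fold enrichment of 15.4 that ranged from 5.58 at the upstream Gnal promoter to 38.4 at Gng7. Of the 165 intron regions, 39 were called in all libraries, and their fold enrichment reached 23.2 in an intron of Rgs9. Pde7b had the most regions, 102, of which 13 were called everywhere. Pde10a had 52 and 20, and Rgs2 had 2 and 1. The windows of the genes held 441 merged regions before those called in fewer than 2 libraries of every group were left out.

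Cocaine in diestrus had the most changed regions of the 3 within-stage comparisons, among the members as among all regions. Signal rose at promoters of Rgs2, Rgs4 and Pde7b and fell at regions of Pde10a, Adcy5, Ppp1r1b and Pde1b. In limma on normalized log2 fold enrichment, 3 of the 74 regions rose and 12 fell at an adjusted p of 0.05, against 6.65% rising and 6.36% falling of all 36847 regions tested. The 3 that rose were 4.05% of the members, below the share over all regions, and the 12 that fell were 16.2%. In proestrus 1 rose and 5 fell (background 2.57% and 2.44%), and in males 3 rose and 1 fell (background 3.54% and 5.06%). For the mean of the 3 cocaine effects, 6 rose and 13 fell, against a background of 7.32% and 7.70%. The effect in diestrus could not be separated from that in proestrus at any member. None of the 74 passed the limma test of that difference, and of all regions 0 passed higher and 0.00543% lower. At an unadjusted p under 0.05 there were 7 of the 74. For unadjusted limma counts, here and below, the share of all regions is not given, so they cannot show an excess at the members. These counts depended on how a region was summarized and on single libraries. Counts with another summary or without a library are of members alone. No share of all regions stands beside them, so they do not set the members apart from other regions. With the mean of all peaks in a region in place of its tallest peak, 2 passed in diestrus and 9 for the mean effect. The 15 in diestrus became 28 without diestrus cocaine 1, 5 without diestrus cocaine 2, 5 without diestrus cocaine 3 and 7 without diestrus control 3. The 6 in proestrus became 1, 2 and 2 without proestrus control 1, 2 or 3, and 2 without proestrus cocaine 4. The 4 in males became 0 without male control 2 or male cocaine 1, 1 without male control 3 or male cocaine 2, and 7 without proestrus cocaine 2. The 19 for the mean became 12 without diestrus control 3, diestrus cocaine 3 or male control 1, 11 without male cocaine 1 and 9 without male cocaine 2. Adjusted for GC content, 4 rose and 8 fell in diestrus, against 7.64% and 6.35% of all regions. Proestrus gave 0 and 4 (1.83% and 1.88% of all), and the mean 6 and 11 (7.73% and 8.43%).

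**Figure D2:**
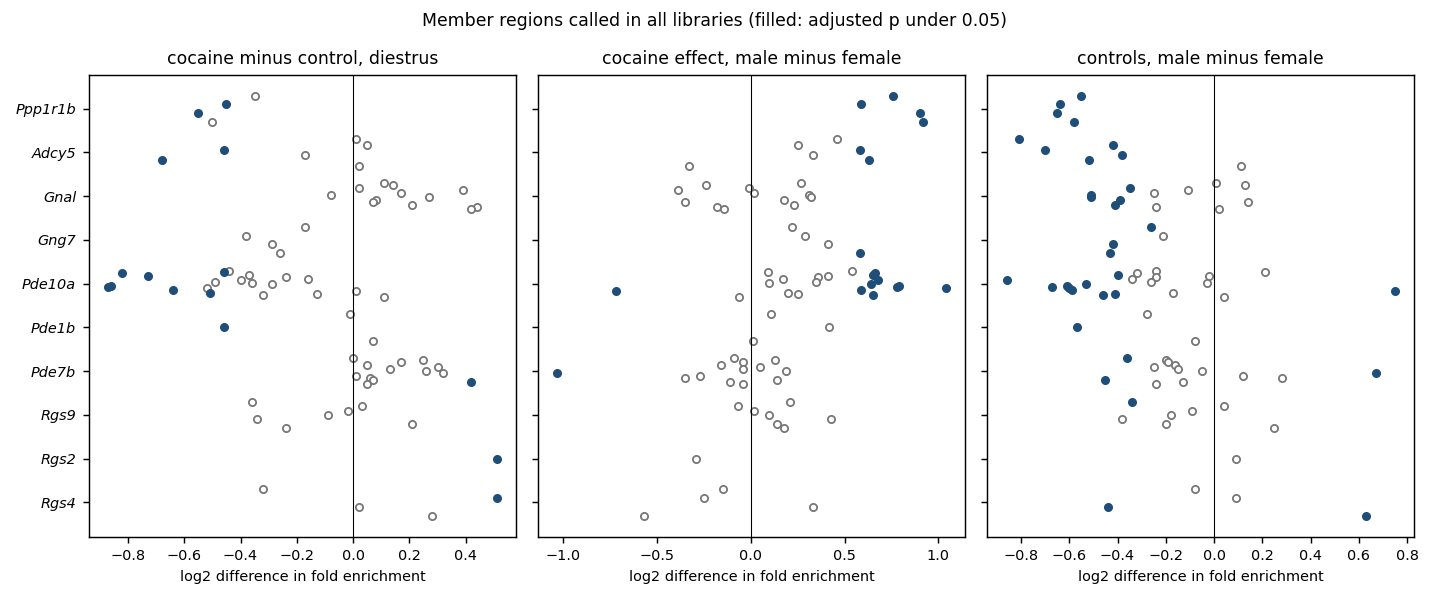
Log2 change of normalized fold enrichment (horizontal axis) at each of the 74 regions called in every library, by gene, for the cocaine effect in diestrus, the cocaine effect in males minus that in females, and controls, males minus females; filled points passed the limma test at an adjusted p of 0.05. In controls 31 filled points lie below 0 and 3 above, and in the panel for the difference of cocaine effects 16 lie above and 2 below.

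Marker genes moved in the same comparisons. In diestrus, promoters of the medium spiny neuron genes Penk (0.88, adjusted p = 0.00162), Tac1 (0.69, 0.0116) and Foxp1 (0.56, 0.014) rose after cocaine, each given as log2 change and limma adjusted p. The change was 0.19 at Drd1, -0.02 at Drd2 and -0.21 at Bcl11b, and none of these 3 passed. The promoter of Rbfox3, which encodes NeuN, fell by 1.05 (0.0019), and that of Slc17a7 fell by 0.60 (0.0118). The other neuronal promoters went the other way, Snap25 by 0.31 (0.0673) and Syt1 by 0.24 (0.119), and neither passed. The part of cell composition in the changes at the 10 genes was not tested, and in bulk nuclei a change in the share of a cell type cannot be told apart from a change per cell.

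Male and female controls differed at more regions than cocaine and control did in any stage. In limma, 31 of the 74 regions were lower and 3 higher in male than in female controls (mean of both stages), while 12.6% of all regions were lower and 13.1% higher. The median difference of the 74 was -0.25 on the log2 scale, and that of all regions was -0.01. Each of the 10 genes but Rgs2 had at least 1 region that was lower in males. Adjusting for GC content gave 32 lower and 3 higher, against 14.1% and 13.8% of all regions. The 34 became 20 without male control 2 and 21 without male control 3. Fewer still passed with the mean of all peaks in a region, a count given with the processing alternatives. Of the medium spiny neuron promoters 3 of 7 were also lower in male controls, Drd1 (-0.45), Drd2 (-0.60) and Tac1 (-0.56), as were 20 of the 53 regions tested around the 8 genes, with 1 higher. Of the neuronal promoters, Rbfox3 was lower (-0.46, adjusted p = 0.0354), while the differences at Snap25 (0.21) and Syt1 (0.20) did not pass. Whether the difference at the 10 genes comes with these cells was not tested. Diestrus and proestrus controls gave 0 of 74 in limma, against 0.516% of all regions higher and 0.176% lower in diestrus. After GC adjustment 1 passed as lower, against 0.706% of all regions higher and 0.261% lower. At an unadjusted p under 0.05 there were 15 of the 74, with no share of all regions to set beside them.

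In the windows of the genes of DARPP-32 and the cyclase, all 4 regions tested at Ppp1r1b and 5 of 6 at Adcy5 were lower in male controls. At Ppp1r1b these were the promoter, an upstream flank region and regions inside Stard3. The regions inside Stard3 cannot be assigned to Ppp1r1b from position alone. At Ppp1r1b (ENSMUSG00000061718.12, chr11:98348404-98357796, plus strand) the promoter region was 22791 bp wide, covered the whole gene, and had its tallest summit 122 bp after the start site. Normalized fold enrichment there was 22.6, 25.0 and 22.9 in diestrus controls and 22.0, 21.9 and 24.6 in proestrus controls. In male controls it was 17.2, 13.6 and 13.9. In these normalized values every male control lay below every female control, and the difference was -0.64 ± 0.11 (SE, limma adjusted p = 0.000123). Between 103 and 253 reads stood at the summit in each library. Summit reads, which are not normalized, overlapped, with 162 in male control 1 and 159 in diestrus control 1. The share of the gene body under peaks showed the same order as the normalized values. It was 91.4%, 100% and 97.2% in diestrus controls, 100% in each proestrus control, and 69.3%, 52.2% and 61.9% in male controls (limma on the arcsine square root, -0.59 ± 0.10, adjusted p = 0.00469). The 200 bases before the start site, shown because this promoter differed between control males and females, hold none of the 5 motifs searched.
Ppp1r1b promoter, chr11:98348204-98348403 (plus): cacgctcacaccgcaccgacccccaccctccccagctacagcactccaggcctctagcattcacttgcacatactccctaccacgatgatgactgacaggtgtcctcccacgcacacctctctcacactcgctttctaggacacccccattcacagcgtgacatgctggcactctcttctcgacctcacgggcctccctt

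After cocaine the Ppp1r1b promoter was lower in diestrus. Values were 21.7, 16.1 and 14.5 in diestrus cocaine libraries, a change of -0.45 ± 0.13 (limma adjusted p = 0.0227), with diestrus cocaine 1 near the controls. The call was lost after GC adjustment (adjusted p = 0.0516), with median centring (0.0642), without diestrus control 2 or 3 and without diestrus cocaine 2 or 3 (0.0696 to 0.193). In proestrus the values were 20.6, 16.5 and 19.7 and the change was -0.28 ± 0.13 (adjusted p = 0.19). In males they were 17.4 and 17.3, at or above the 3 male controls, with a change of 0.23 ± 0.15 (adjusted p = 0.347). After cocaine, fold enrichment at the promoter differed between males and females by -0.05 ± 0.13 (adjusted p = 0.831). The gene body share was still lower in males after cocaine (limma, -0.48 ± 0.12, adjusted p = 0.0101), but not with quantile-normalized shares (0.172). In this comparison 9 of the 10 genes had a smaller share in males, against 28.4% of all genes smaller and 0.0465% larger. An upstream flank region, at chr11:98337258-98339707, fell in proestrus by 0.76 ± 0.20 (adjusted p = 0.0283, and 0.0634 after GC adjustment). A region inside Stard3, a cholesterol transport gene downstream of Ppp1r1b, fell in diestrus by 0.55 (adjusted p = 0.0323, and 0.0608 after GC adjustment).

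Adcy5 (ENSMUSG00000022840.9, chr16:35154877-35305738, plus strand) was tested at 6 regions. The tallest stood in an intron, in a region 66516 bp wide at chr16:35198053-35264568. Normalized fold enrichment there was 25.8, 28.8 and 31.7 in diestrus controls, 27.1, 23.6 and 25.4 in proestrus controls, and 16.7, 15.1 and 18.1 in male controls. Males again lay below all females (-0.70 ± 0.12, limma adjusted p = 5.54e-05, held without any 1 library and after GC adjustment). An upstream region at chr16:35145865-35146816 differed by -0.81 ± 0.14 (adjusted p = 8.58e-05) and the promoter by -0.42 ± 0.12 (adjusted p = 0.0116, and 0.0837 without male control 1).

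In diestrus the Adcy5 intron fell by 0.46 ± 0.13 after cocaine, with values of 24.3, 19.3 and 19.1 (limma adjusted p = 0.0219). That call was lost after GC adjustment (0.0517) and without diestrus control 2 or 3 or diestrus cocaine 2 or 3 (0.0648 to 0.131). A region over the 3′ end and beyond, at chr16:35280793-35318233, went from 12.6, 12.5 and 13.9 to 10.4, 7.36 and 6.89. The groups did not overlap, and the fall of 0.68 ± 0.15 (adjusted p = 0.00613, also after GC adjustment) missed the threshold without diestrus cocaine 2 (0.0541) or 3 (0.0672). The Adcy5 promoter did not pass in any cocaine comparison, with changes of 0.05 ± 0.14 in diestrus, 0.09 ± 0.14 in proestrus and 0.32 ± 0.16 in males (adjusted p from 0.203 to 0.854). The intron summit is shown with TGACG, the core of the cAMP response element (CRE), in capitals on either strand.
Adcy5 intron, chr16:35220575-35220775 (plus): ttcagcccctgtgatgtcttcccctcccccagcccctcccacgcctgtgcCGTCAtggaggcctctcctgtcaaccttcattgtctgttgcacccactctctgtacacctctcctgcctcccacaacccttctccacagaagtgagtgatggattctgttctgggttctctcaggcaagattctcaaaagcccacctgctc

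No region of the G protein subunit genes passed in either female stage, with 5 of 16 at an unadjusted p under 0.05 in diestrus and 2 of 16 in proestrus (limma). After GC adjustment 1 passed in diestrus, a region in the Gnal window at the promoter of Mppe1 (0.42 ± 0.15, adjusted p = 0.0572, and 0.0323 with the adjustment). Gng7 (ENSMUSG00000048240.14, chr10:80948624-81014945, minus strand) had the tallest promoter of the 10 genes. Normalized fold enrichment there was 46.6, 45.4 and 46.3 in diestrus controls, 42.3, 40.6 and 39.5 in proestrus controls, and 37.4, 29.5 and 30.3 in male controls. Male controls were lower than females by 0.43 ± 0.09 (limma adjusted p = 0.000681, held without any 1 library). In males after cocaine it was 45.5 and 39.5, higher by 0.40 ± 0.11 (adjusted p = 0.0253). Summit reads, which are not normalized, overlapped, with 351, 240 and 309 in male controls and 389 and 299 after cocaine. Those of male control 1 also exceeded the 336 of diestrus control 1. There were 2 male cocaine libraries, and the call was lost after GC adjustment (0.0811) and without male control 2 or 3 or male cocaine 1 or 2 (0.0639 to 0.306). In diestrus the values were 43.0, 39.6 and 33.3 (-0.26 ± 0.10, adjusted p = 0.078) and in proestrus 38.0, 40.1 and 36.5 (-0.10 ± 0.10, adjusted p = 0.587). The sequence at the summit is shown with its GC boxes (GGGCGG on either strand), 3 in number, in capitals.
Gng7 promoter, chr10:81014946-81015130 (minus): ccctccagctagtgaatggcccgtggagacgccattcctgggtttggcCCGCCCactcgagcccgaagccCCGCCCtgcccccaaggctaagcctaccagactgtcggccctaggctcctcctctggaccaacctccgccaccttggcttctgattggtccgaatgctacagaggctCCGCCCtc

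Gnal (ENSMUSG00000024524.17, chr18:67088216-67226792, plus strand) had 2 promoter regions, and neither passed in a cocaine comparison. The taller was lower in male controls by 0.25 ± 0.10 (adjusted p = 0.0624, and 0.0479 after GC adjustment). Normalized fold enrichment at the taller promoter was 17.2, 17.1 and 18.7 in diestrus controls and 20, 20 and 19.8 after cocaine (0.17 ± 0.12, limma adjusted p = 0.315). At the upstream promoter it ran from 4.40 to 5.34 in diestrus controls and from 4.86 to 6.00 after cocaine (0.11 ± 0.16, adjusted p = 0.661). Of the 12 Gnal regions tested, 5 were lower in male controls, by 0.35 to 0.51. One intron region, at chr18:67179027-67186007, was lower in male controls by 0.51 ± 0.14 (adjusted p = 0.00723, and 0.0524 without male control 3) and rose in males after cocaine by 0.58 ± 0.18 (adjusted p = 0.0382). Its values were 4.63, 4.28 and 4.05 in male controls and 6.62 and 6.24 in male cocaine libraries. The rise was lost without male control 2 or 3 or male cocaine 1 or 2 (0.0969 to 0.227).

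**Figure D3:**
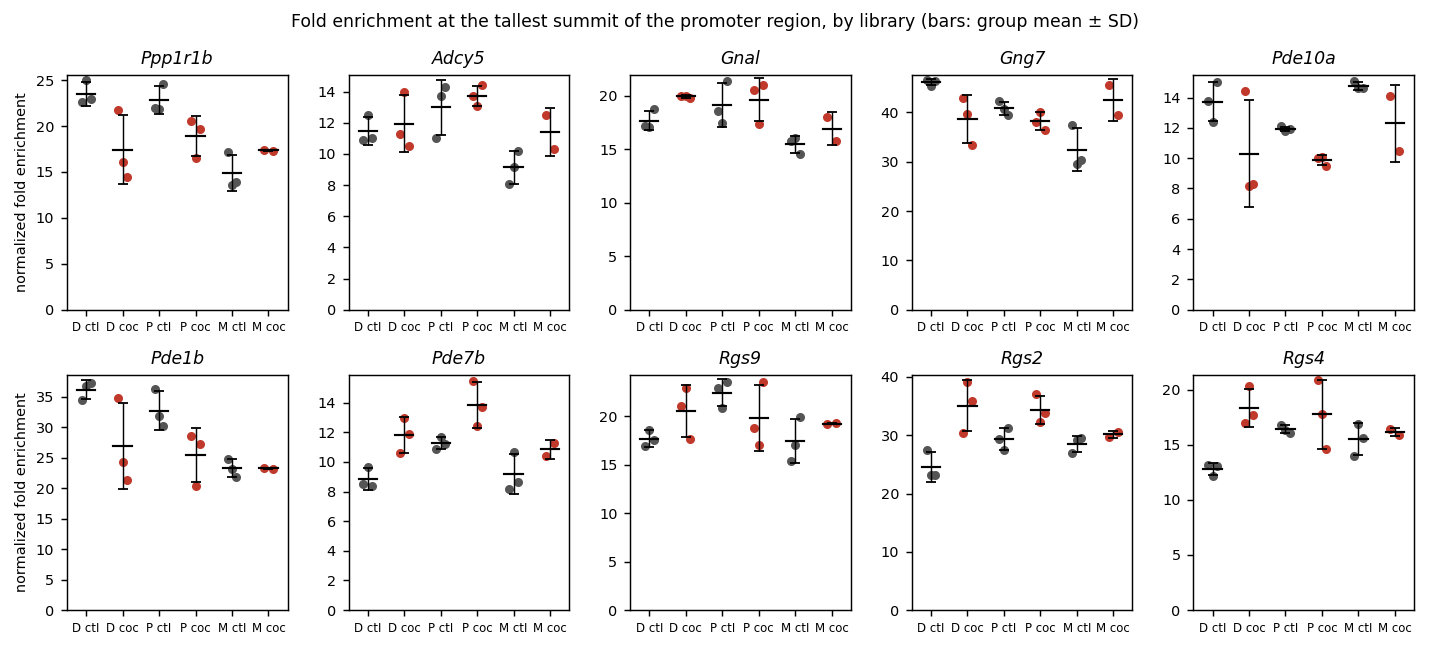
Normalized fold enrichment (ratio to the library's background, vertical axis) at the promoter region of each of the 10 genes in every library, with group means ± SD; D, P and M stand for diestrus, proestrus and male, grey is control and red cocaine. For Pde1b the region spans the promoter and has its tallest summit upstream of it, and at Rgs2 all 3 diestrus cocaine libraries lie above all 3 diestrus controls.

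Of the 12 regions that fell in diestrus, 7 lay at Pde10a. Its product hydrolyses cAMP and cGMP and is enriched in medium spiny neurons. Of the 20 regions tested over the gene (ENSMUSG00000023868.17, chr17:8525372-8986648, plus strand), 7 fell in diestrus and none rose, and the median change of the 20 was -0.42. In proestrus 3 fell and none rose (median -0.27), and in males none passed in limma in either direction (median 0.05, with 5 of 20 at an unadjusted p under 0.05). After GC adjustment 1 passed in males, an intron region at chr17:8736147-8737633 that was higher by 0.64 ± 0.21 (adjusted p = 0.0521, and 0.0409 with the adjustment).

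The fall with the smallest p stood in an intron at chr17:8727069-8731211. Normalized fold enrichment there was 18.6, 20.9 and 25.1 in diestrus controls and 15.2, 11.9 and 8.75 after cocaine. The groups did not overlap, and the change was -0.87 ± 0.16 (limma adjusted p = 0.00197). In proestrus it went from 20, 17.9 and 19.1 to 17.1, 11.4 and 11.3 (-0.55 ± 0.16, adjusted p = 0.0407, lost without diestrus control 2, any 1 proestrus control, proestrus cocaine 2 or 4, male control 3 or any 1 male cocaine library, 0.0501 to 0.177). Male controls were already low, with 12.4, 13.6 and 12, and stood at 13.5 and 13 after cocaine. The difference between control males and females was -0.67 ± 0.14 (adjusted p = 0.000751). Between 62 and 247 reads stood at this summit in each library.

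Another intron region, at chr17:8665897-8670917, also fell in diestrus. Its values were 24.9, 26.3 and 31.4 in diestrus controls and 21.7, 13.7 and 11.6 after cocaine (-0.86 ± 0.16, limma adjusted p = 0.00239). Both of these falls held after GC adjustment (adjusted p = 0.00147 each) and without any 1 library. They were lost where the mean of all peaks in a region replaced its tallest peak (0.0943 and 0.11). An intron region nearer the 5′ end, at chr17:8560593-8561556, fell in diestrus by 0.82 ± 0.17 (0.00425) and in proestrus by 0.69 ± 0.17 (0.0213, lost without proestrus control 1, 2 or 3 or proestrus cocaine 4). The summits of the first 2 are shown with their single TGACG cores in capitals.
Pde10a intron, chr17:8667046-8667246 (plus): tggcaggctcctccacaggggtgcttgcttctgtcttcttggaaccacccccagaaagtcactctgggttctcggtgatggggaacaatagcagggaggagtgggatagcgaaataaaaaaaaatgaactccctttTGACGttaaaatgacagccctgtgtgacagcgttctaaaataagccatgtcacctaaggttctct
Pde10a intron, chr17:8729666-8729866 (plus): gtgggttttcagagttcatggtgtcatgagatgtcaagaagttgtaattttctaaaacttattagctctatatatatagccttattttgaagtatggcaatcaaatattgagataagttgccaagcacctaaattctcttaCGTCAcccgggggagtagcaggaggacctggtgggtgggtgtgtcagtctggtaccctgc

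The other Pde10a changes in diestrus were smaller or less stable. Introns at chr17:8592234-8593332, chr17:8741677-8745943 and chr17:8797517-8889427 fell by 0.73, 0.64 and 0.51 (limma adjusted p = 0.00757, 0.00783 and 0.0177), and each call was lost without diestrus control 3 or diestrus cocaine 3. The annotated 5′ promoter went from 13.8, 12.4 and 15 to 14.4, 8.18 and 8.32. The groups overlapped through diestrus cocaine 1, and its fall of 0.46 ± 0.16 (adjusted p = 0.0477) missed the threshold after GC adjustment (0.0524), with median centring (0.0806) and without any 1 of 14 libraries, all but diestrus cocaine 1, proestrus cocaine 2 and male control 2 (0.0501 to 0.286). Over the 3 cocaine effects the promoter fell by 0.34 ± 0.09 (adjusted p = 0.0153, and 0.1 without male cocaine 2). In proestrus an intron at chr17:8657990-8659993 fell by 0.77 ± 0.17 (adjusted p = 0.0113, and 0.0662 without proestrus control 1), from 9.88, 8.73 and 8.25 to 5.73, 4.19 and 5.98.

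**Figure D4:**
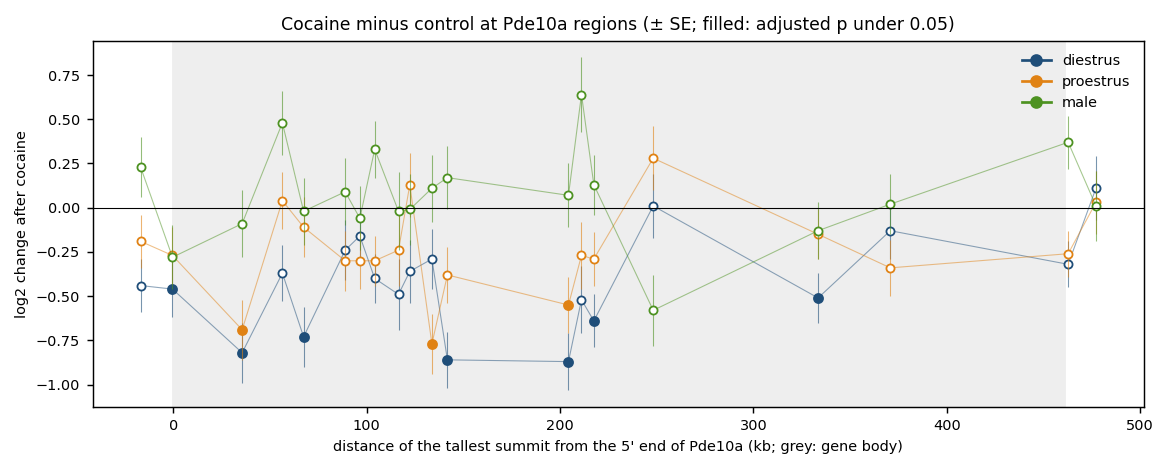
Log2 change of normalized fold enrichment (vertical axis, ± SE) at the 20 regions of the Pde10a window called in every library, by distance of the tallest summit from the 5′ end of the gene (kb, horizontal axis), for the cocaine effect in diestrus, in proestrus and in males. In diestrus 7 regions passed the limma test below 0 and none above, and in males none passed.

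Relative to all peaks of a library, the Pde10a window also held more peaks after cocaine. Per 100000 peaks of a library, the window held 67.2 ± 16.2 (SD) peaks in diestrus controls and 126 ± 62.4 after cocaine. Proestrus went from 51.7 ± 4.80 to 109 ± 20.7 and males from 92.6 ± 27.2 to 160 ± 14.2. Unscaled, the window held 102 to 164 peaks in male controls and 113 to 149 in male cocaine libraries. Male cocaine libraries held fewer peaks in all than male controls. The mean difference was 61.0 (two-sided exact permutation test within sex and stage, 4000 assignments, p = 0.001, adjusted p = 0.041 over 18210 genes). It was 58.3 in diestrus, 57.6 in proestrus and 67.2 in males. Pde10a was the only one of the 10 to pass, against 1.81% of all genes higher and 1.87% lower. Adcy5 came next with a difference of 25.5 (adjusted p = 0.0995). The Pde10a call was lost when any 1 of 15 of the 17 libraries was left out, all but diestrus cocaine 1 and male control 2, with differences from 49.9 to 70.5. It was also lost for the gene body with no flanks (0.0509), at the stricter q and with equal numbers of strongest peaks. The share of the gene body under peaks did not rise with the count. In diestrus it was 43.7%, 49.1% and 48.8% in controls and 48.8%, 39.0% and 26.5% after cocaine (limma adjusted p = 0.399).

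Pde1b (ENSMUSG00000022489.6, chr15:103503034-103530052, plus strand), a calcium and calmodulin dependent phosphodiesterase, lay in a single region 45080 bp wide with its tallest summit upstream of the start site. Normalized fold enrichment there was 34.4, 36.7 and 37.3 in diestrus controls and 34.8, 24.3 and 21.4 after cocaine. The groups overlapped through diestrus cocaine 1, and the fall was 0.46 ± 0.13 (limma adjusted p = 0.0219, and 0.0325 after GC adjustment). It was lost without diestrus control 2 or 3 or diestrus cocaine 2 or 3 (0.0693 to 0.207). Male controls, at 24.7, 23.2 and 21.8, lay below every female control by 0.57 ± 0.11 (adjusted p = 0.000607). A downstream region at chr15:103545540-103546752 fell in proestrus from 5.35, 5.75 and 4.82 to 2.70, 2.73 and 3.78, by 0.80 ± 0.17 (adjusted p = 0.00851, and 0.0542 without proestrus cocaine 1). The upstream summit is shown because it is the tallest of the phosphodiesterase genes, and its TGACG core is in capitals.
Pde1b upstream, chr15:103500813-103501013 (plus): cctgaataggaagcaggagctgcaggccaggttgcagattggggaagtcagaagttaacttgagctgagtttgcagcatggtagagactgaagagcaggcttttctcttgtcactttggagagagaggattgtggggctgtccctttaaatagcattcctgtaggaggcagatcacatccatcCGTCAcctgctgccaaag

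Pde7b (ENSMUSG00000019990.15, chr10:20398004-20725078, minus strand), a cAMP-specific phosphodiesterase, had rising regions. For the mean of the 3 cocaine effects, 3 of its 13 tested regions rose and none fell. The 5′ promoter region went from 8.50, 9.69 and 8.35 to 10.6, 13 and 11.9 in diestrus. The groups did not overlap, and the rise was 0.42 ± 0.14 (limma adjusted p = 0.0408), a call lost without any 1 diestrus control, diestrus cocaine 2 or 3, proestrus control 2 or 3, male control 3 or any 1 male cocaine library (0.0502 to 0.188). In proestrus it went from 10.9, 11.7 and 11.2 to 15.5, 12.4 and 13.7 (0.30 ± 0.14, adjusted p = 0.182) and in males from 8.16, 10.7 and 8.65 to 10.4 and 11.3 (0.25 ± 0.15, adjusted p = 0.327). Its mean rise was 0.32 ± 0.08 (adjusted p = 0.009), which held without any 1 library. An inner promoter rose by 0.32 ± 0.09 over the 3 effects (adjusted p = 0.0216, and 0.0605 without diestrus cocaine 2, 0.0975 without male cocaine 2).

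An intron of Pde7b at chr10:20470136-20478109 rose in proestrus, from 8.48, 10.4 and 11.2 to 11.9, 15.6 and 14.4 (0.48 ± 0.13, limma adjusted p = 0.036), and in males, from 10.2, 9.29 and 10.7 to 14.1 and 14 (0.49 ± 0.15, adjusted p = 0.0383). Neither pair of groups overlapped. The proestrus call was lost after GC adjustment (0.0754), with median centring (0.0871) and without any proestrus library but proestrus cocaine 1 (0.0512 to 0.181), and the male call without any 1 male library (0.0633 to 0.199). The mean rise of 0.40 ± 0.08 (adjusted p = 0.00127) held without any 1 library. A farther intron at chr10:20656016-20662053 fell in males by 0.86 ± 0.22 (adjusted p = 0.0116, and 0.0909 without male control 2, 0.266 without male cocaine 1). The 5′ promoter and an intron of Pde7b each hold the full CRE, TGACGTCA, which is in capitals, within 100 bp of the summit.
Pde7b promoter, chr10:20725079-20725193 (minus): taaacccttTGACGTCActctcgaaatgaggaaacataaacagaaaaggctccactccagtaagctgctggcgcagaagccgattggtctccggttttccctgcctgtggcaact
Pde7b intron, chr10:20673866-20674066 (minus): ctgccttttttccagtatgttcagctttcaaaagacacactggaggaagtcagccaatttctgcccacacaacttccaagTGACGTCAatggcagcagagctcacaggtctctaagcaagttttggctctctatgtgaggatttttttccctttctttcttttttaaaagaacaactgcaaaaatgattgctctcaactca

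The promoters of 2 of the 3 RGS genes rose in diestrus. At Rgs2 (ENSMUSG00000026360.9, chr1:143999338-144004161, minus strand), an early response gene whose product acts mainly on Gq, normalized fold enrichment was 27.5, 23.1 and 23.1 in diestrus controls and 30.4, 39.1 and 35.8 after cocaine. All cocaine libraries lay above all controls, and the rise of 0.51 ± 0.11 (limma adjusted p = 0.00372) held after GC adjustment (0.00431) and without any 1 library. Between 193 and 359 reads stood at the summit. In proestrus the values went from 29.3, 27.5 and 31.2 to 37.0, 32.3 and 33.9 (0.23 ± 0.11, adjusted p = 0.177) and in males from 27, 29.1 and 29.5 to 29.7 and 30.6 (0.08 ± 0.12, adjusted p = 0.717). No overlap was seen in either, and the mean rise of 0.27 ± 0.06 (adjusted p = 0.00404) held without any 1 library. The promoter of Rgs2 is shown with the TGACG cores (2) and GC boxes (3) in capitals.
Rgs2 promoter, chr1:144004162-144004355 (minus): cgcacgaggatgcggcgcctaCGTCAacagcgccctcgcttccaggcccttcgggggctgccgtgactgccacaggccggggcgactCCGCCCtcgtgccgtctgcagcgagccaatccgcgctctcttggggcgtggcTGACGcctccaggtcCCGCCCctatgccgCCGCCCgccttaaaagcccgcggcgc

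At Rgs4 (ENSMUSG00000038530.11, chr1:169741477-169747642, minus strand), whose product acts on Gi and Gq, the promoter went from 13.2, 12.2 and 13.1 in diestrus controls to 17, 20.3 and 17.7 after cocaine. The groups did not overlap, and the rise was 0.51 ± 0.13 (limma adjusted p = 0.00934, and 0.00918 after GC adjustment). Without diestrus cocaine 2 it was 0.44 (0.0832), and with the mean of all peaks in the region it was -0.05, so that the rise belongs to the tallest peak. In proestrus the groups overlapped, with 16.8, 16.3 and 16.1 against 20.9, 17.8 and 14.6 (0.10 ± 0.13, adjusted p = 0.643), and so they did in males (0.06 ± 0.14, adjusted p = 0.825). The promoter is shown with its TATA box in capitals.
Rgs4 promoter, chr1:169747643-169747779 (minus): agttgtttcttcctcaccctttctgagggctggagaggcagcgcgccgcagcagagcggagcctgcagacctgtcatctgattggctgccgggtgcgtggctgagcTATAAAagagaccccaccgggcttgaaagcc

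Rgs9 (ENSMUSG00000020599.13, chr11:109225355-109298129, minus strand), whose striatal isoform acts on D2 receptor signalling, had no region that passed in diestrus, proestrus or males (limma, with 1, 3 and 0 of 7 at an unadjusted p under 0.05). Its 5′ promoter stood at 16.9, 18.6 and 17.6 in diestrus controls and 21.1, 22.9 and 17.7 after cocaine (0.21 ± 0.13, limma adjusted p = 0.265). In proestrus it stood at 22.9, 20.9 and 23.6 in controls and 18.8, 17.1 and 23.6 after cocaine (-0.19 ± 0.13, adjusted p = 0.36). A region over its 3′ end fell by 0.27 ± 0.08 for the mean of the 3 effects, which became 0.02 with the mean of all peaks in the region (adjusted p = 0.0237, lost without diestrus control 3, diestrus cocaine 3, proestrus control 3, male control 1 or male cocaine 1, 0.0515 to 0.102).

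The cocaine effect differed between males and females at 18 of the 74 regions in limma. At 16 the effect was more positive in males and at 2 less, against 9.81% and 9.90% of all regions. Of the 16, 9 lay in the Pde10a window, 4 in that of Ppp1r1b, 2 in that of Adcy5 and 1 at the Gng7 promoter. Those of Ppp1r1b include regions inside Stard3, and those of Pde10a include the promoter of 1700010I14Rik. The difference was 0.59 ± 0.17 at the Ppp1r1b promoter (adjusted p = 0.0175, and 0.117 after GC adjustment), 0.58 ± 0.13 at the Gng7 promoter (0.00462) and 0.78 ± 0.21 at the strongest Pde10a intron (0.0114). At all 16 male controls were lower than female controls, and 15 of these passed that test. Both comparisons use the same control libraries, so the second is not independent of the first. The 18 became 9 without male control 2, 11 without male control 3, 2 without male cocaine 1 and 4 without male cocaine 2. After GC adjustment 15 passed, 13 more positive in males and 2 less, against 7.57% and 10.6% of all regions. With the mean of all peaks in a region 9 passed. Marker promoters also differed in this comparison, Drd2 by 0.98 (adjusted p = 0.00444), Penk by -0.61 (0.0323) and Snap25 by -0.50 (0.0207), and 10 of the 29 regions tested at Rbfox3 were higher and 0 lower. Their part in the result was not tested.

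Few regions were gained or lost outright. A region was counted as gained in a stage if every cocaine and no control library had it called, and as lost in the converse case. No p-value is given, because 3 libraries against 3 cannot reach a p below 0.1. In diestrus 0 of the 255 regions were gained (1.16% of all regions) and 1 was lost (1.26%), a Pde10a intron region at chr17:8785820-8786375. In proestrus 3 were gained (2.45%), all in introns of Pde7b between 20556315 and 20571556 on chromosome 10. Lost in proestrus were 7 (1.64%), of which 3 lay at Gng7, 2 at Ppp1r1b, 1 in an exon of Rgs9 and 1 beside Gnal. These 10 regions were weak, with a median fold enrichment from 2.45 to 3.38.

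In males 0 were gained (1.66%) and 25 were lost, or 9.80% of the members, against 16.8% of all regions. Pde7b lost 8, Pde10a 4, Rgs9 3, and Gnal, Pde1b and Rgs4 2 each, and the other genes 1 each. Their median fold enrichment ran from 2.85 to 5.42, and no promoter of the 10 genes was among them. With the same number of strongest peaks taken from every library, 3 were gained and 7 lost in males. Male cocaine libraries held 87707 and 75458 peaks and male controls 134653 to 150009. Leaving out 1 library gave up to 38 lost in males, up to 21 gained and 16 lost in proestrus, and up to 5 gained and 9 lost in diestrus, since fewer libraries separate more often.

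Over all 17 libraries, no member passed Fisher's exact test of 8 cocaine against 9 control libraries after adjustment, nor did any of the 64304 regions tested. At an unadjusted p under 0.05, 2 of the 109 members tested were called more often after cocaine (3.81% of all) and 12 less often (9.23%). These were 1.83% and 11% of the members. With equal numbers of strongest peaks, more members were called more often than less often at that p. The 2 called more often over all peaks were introns of Pde7b, each called in 4 cocaine and 0 control libraries. Among the 12, a Pde10a intron at chr17:8624028-8624655 was called in 2 cocaine and 9 control libraries, and a region inside Stard3 at chr11:98367013-98368128 in 0 and 7.

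Control groups were compared in the same way. Of the 255 regions, 1 was called in diestrus and not in proestrus controls (3.96%), and 3 the other way (0.792%), of which 2 lay at Pde7b and 1 at Rgs9. Males had 5 that diestrus controls lacked (9.05%) and lacked 9 (3.02%). Against proestrus controls, males had 8 (10.5%) and lacked 12 (1.42%), of which 5 lay at Gng7 and 3 beside Gnal. The 12 were 4.71% of the members and the 8 were 3.14%.

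The share of the gene body under peaks was tested for each gene as an addition made after the wide peaks had been seen. In diestrus Rgs2 rose from 86.3%, 91.5% and 88.7% to 100% in each cocaine library (limma adjusted p = 0.0126), 1 of 10 genes, against 0.523% of all genes higher and 0.0581% lower. The call was lost without diestrus control 1 (0.071) or diestrus cocaine 2 (0.0626). In proestrus Rgs9 fell from 87.3%, 77.5% and 83.5% to 55.1%, 38.9% and 49.1% (0.0228) and Ppp1r1b from 100% in each to 83.2%, 86.9% and 85.0% (0.0466), while 3.79% of all genes were higher and 8.91% lower. Neither group overlapped, but the Rgs9 call was lost without proestrus control 2 or 3 or proestrus cocaine 1 or 4 (0.0592 to 0.0854) and the Ppp1r1b call without any 1 of 12 libraries (0.0526 to 0.138).

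In males, 5 genes fell after cocaine, Adcy5, Gnal, Pde10a, Pde1b and Rgs9, against 0.163% of all genes higher and 30.5% lower. Adcy5 went from 76.6%, 55.1% and 73.8% to 33.2% and 23.2% (limma adjusted p = 0.00606). None of the 5 passed without male cocaine 2, and 3 without male control 1 or 3. With quantile-normalized shares 2 of the 5 passed, Adcy5 and Pde1b, and with the same number of strongest peaks Pde10a alone. For the mean of the 3 effects 1 gene was higher and 6 lower (1.65% and 42.0% of all). With quantile-normalized shares 1 was higher (12% of all) and none of the 6 passed as lower (9.55% of all), with adjusted p from 0.0941 to 0.866 in limma. The cocaine effect was lower in males than in females at Pde7b and Rgs2 (0.0813% and 20.2% of all higher and lower), and neither passed without male cocaine 2, with quantile-normalized shares (0.0547 and 0.91) or with equal peak numbers (0.0754 and 0.0508). The Pde7b call was lost in 11 of 17 leave-outs, and the Rgs2 difference went from -0.24 to -0.02 with quantile-normalized shares.

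Between control males and females, 7 genes had a smaller share in males, Ppp1r1b, Adcy5, Gnal, Gng7, Pde1b, Rgs9 and Rgs2, against 6.45% of all genes with a larger and 6.91% with a smaller share. Ppp1r1b was the only one past the threshold without male control 2 or 3. With quantile-normalized shares 2 passed, Ppp1r1b (0.00107) and Gng7 (0.013).

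Of 37 other genes of cAMP and DARPP-32 signalling, 35 had a promoter region called in all libraries. In diestrus 5 of these rose after cocaine and 2 fell in limma, with a median change of 0.05. All regions tested gave 6.65% rising and 6.36% falling in this comparison. Those that rose were Rgs7 (0.56), Adcy1 and Gnai1 (0.50 each), Prkacb (0.47), which encodes a catalytic PKA subunit, and Prkar2b (0.40), a regulatory one. Ppp1ca, a catalytic subunit of protein phosphatase 1, fell by 0.63 (adjusted p = 0.00748) and Prkar1b by 0.33. In proestrus Ppp3ca, the calcineurin catalytic subunit, rose by 0.40 and Pde4a fell by 0.46, and in males Gnb1 rose by 0.48 (adjusted p = 0.0499). The calls of Pde4a (0.164) and Gnb1 (0.132) were lost after GC adjustment. In controls, Gnai1 was higher in males by 0.41, and Gnb1, Ppp1ca, Pde4a, Arpp21, Rgs8 and Rgs14 were lower, by 0.29 to 0.57, with Pde4a lost after GC adjustment (0.123).

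Over the 254 regions tested around these genes, 14 rose and 9 fell in diestrus, against 6.65% and 6.36% of all regions. The counts were 8 and 5 for proestrus females (2.57% and 2.44% of all) and 15 and 14 for males (3.54% and 5.06%). In male against female controls (13.1% and 12.6% of all) 23 were higher and 39 lower. By the smallest p over their regions the first were Pde4d, where a region 8202 bp after a start site rose by 0.80 ± 0.10 over the 3 cocaine effects (limma adjusted p = 1.99e-05), Ppp1cb, with a region lower in male controls by 0.92 ± 0.13 (3.9e-06), and Pde2a, with an upstream region lower by 1.06 ± 0.15 (5.03e-06). An Arpp21 region 76943 bp after a start site, the one with the smallest p of 16 tested, rose in males after cocaine by 1.05 ± 0.18 (0.000236). The rest of the first 10 were Adcy1, Ppp2ca, Prkar1b, Pde8b, Prkar2b and Rgs7.

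The sequence at the summits was searched on both strands for 5 motifs within 100 bp. The full CRE, TGACGTCA, was at 4 of the 74 members called everywhere (5.41%), against 1.25% of all such regions, and at 5 of all 255 members (1.96%, against 0.498%). Its core TGACG, which is part of the CRE, was at 21.6% of the 74 and 15.8% of all. The GC box GGGCGG was at 14.9% and 23.3%, the AP-1 site TGAGTCA at 6.76% and 11.5%, and TATAAA at 6.76% and 9.21%. Of the 4 members with a full CRE that were called everywhere, 3 lay in Pde7b. These are counts of letters, not of binding.

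Among 12095 promoters called in all libraries, those of Npas4, Rab15 and Hdac5 had the pattern most like the Ppp1r1b promoter over the 6 group means (Pearson r of 0.9961, 0.9932 and 0.991, over 6 points that share the libraries).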

How the data were processed

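Peaks of ATAC-seq were analysed in 17 libraries of sorted neuronal nuclei, grouped by the titles into 6 groups of sex, stage and treatment. The authors trimmed the reads, aligned them to mm10 with BWA and called peaks in each library separately with MACS2; versions and options are not given in the sources used here. The deposited fold enrichment is the ratio of the summit pileup to the library's own background, not normalized between libraries. The deposited −log10 p and −log10 q values come from the same peak calls and were used only for a stricter threshold of 5. Total read counts are not in the peak lists, and the background pileup of 6.26 to 9.55 reads per library, recovered from the steps of the fold values, sets the precision.

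Overlapping peaks (at least 1 bp) of the autosomes and chromosome X were merged over libraries, and regions called in at least 2 libraries of a group were kept. Merged regions can be very wide, so a value stands for the tallest peak of its region. At regions called in all libraries, log2 fold enrichment was quantile-normalized and compared with limma 3.58.1 (R 4.3.3; 6 groups, trended variance, 11 residual degrees of freedom), with Benjamini-Hochberg adjustment over all regions at 0.05. Python 3.11.15, numpy 2.4.6, pandas 2.3.3, scipy 1.17.1 and pysam 0.24.0 did the rest. Calls in 4 to 13 libraries were compared by Fisher's exact test, and peaks per gene by an exact permutation test within sex and stage. The share of the gene body under peaks was tested with limma on the arcsine square root over 8605 genes with a mean share of at least 5%.

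Each library pools 3 animals, so p-values measure the spread between pools. Named regions are the promoters of the 10 genes and the regions gained, lost or past the limma threshold, and pathway genes are the 10 with the smallest p. Some marker genes are not reported here. The members and lists were chosen with earlier results of these data known. Alternatives were GC correction, median centring, array weights, stricter or equal numbers of peaks, other region definitions, the replicate block and leaving out each library. The tests of gene body share and of regions with 1 common summit were added after seeing the data. Sequences come from the mm10 reference, 5′ to 3′ on the strand of the gene.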

Additional observations from a re-analysis of the deposited data

Results flagged for a closer look

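The cocaine effect differed between males and females, by the limma test of that difference, at 18 regions and at the gene body share of 2 genes. Values are the effect in males minus that in females on the log2 scale. At Ppp1r1b it was 0.59 at the promoter (adjusted p = 0.0175), 0.76 at the upstream flank (0.0435), and 0.90 and 0.92 at the regions inside Stard3 (0.00775 and 0.00866). At Adcy5 it was 0.58 in the intron (0.0218) and 0.63 at the 3′ end (0.0288), and at the Gng7 promoter 0.58 (0.00462). At Pde10a it was positive at 9 regions, in order along the gene 0.66, 0.65, 0.68, 0.64, 0.79, 0.78, 1.04, 0.59 and 0.65, and negative at 1, with -0.72 (0.0322). At Pde7b an intron region gave -1.03 (0.00714). The share of the gene body under peaks gave -0.24 at Pde7b (0.0361) and -0.24 at Rgs2 (0.0114) on the arcsine scale. After GC adjustment the calls at the Ppp1r1b promoter (0.117), its upstream flank (0.16) and the Adcy5 intron (0.0646) were lost, and the flank call was also lost in 10 of 17 leave-outs. Those at Pde10a were lost in 1 to 12 of 17. Each of these rests on 2 male cocaine libraries, and the controls enter this comparison and that of control males with females.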

How the results depend on the processing

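Of 96 named changes in fold enrichment, 83 kept direction and call after GC correction, 86 with median centring and 96 with array weights. With the mean of all peaks in a region 22 did, 67 lost the call and 7 reversed: Gng7 3′ flank 0.17, a Pde10a intron 0.12, and Rgs9 3′ flank 0.02 and Rgs4 promoter -0.13 for the mean effect, Pde7b intron 0.03 and Rgs9 3′ flank 0.12 between control males and females, and Rgs4 promoter -0.05 in diestrus. Counts past the limma threshold with that mean were 2 in diestrus, 9 for the mean effect, 9 for the male minus female effect and 11 between controls. Array weights gave 40, 13, 13 and 32 for diestrus, proestrus, males and the mean effect. Counts in this section are of members alone, with no share of all regions or genes in the same setting. They do not set the members apart from the rest. A −log10 q of at least 5 gave 3 in proestrus and 2 in males, regions called in at least 12 libraries 10 for the male minus female effect, and regions with 1 common summit 1 in males, 11 for that effect and 18 between controls. The exact permutation test gave 10 for the mean effect. The cause of these shifts was not tested.

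For separation, a −log10 q of at least 5 gave 1 gained and 2 lost in diestrus, and 3, 4 and 5 for diestrus not proestrus, diestrus not male and proestrus not male controls. Equal numbers of strongest peaks gave 1 gained and 3 lost in diestrus, 3 gained and 7 lost in males, and 0, 5 and 4 for diestrus not proestrus, proestrus not diestrus and male not proestrus. Peaks covering 50% of the region gave 2 lost in diestrus, 16 lost in proestrus, and 2, 5 and 19 for diestrus not proestrus, proestrus not diestrus and proestrus not male. Gene bodies without flanks gave 2 lost in proestrus, 14 lost in males, and 0, 3, 5 and 6 for diestrus not proestrus, male not diestrus, diestrus not male and proestrus not male. Fisher counts became 5 more and 3 less often with equal numbers, and 1 more often by permutation within sex and stage. The count for peaks per gene fell to 0 without flanks, at the stricter q and with equal numbers.

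For the gene body share, proestrus gave 1 at the stricter q and 5 with equal numbers, which gave 1 in males and 0 for the male minus female effect. Quantile-normalized shares gave 2, 1, 0 and 2 for males, the mean effect, the male minus female effect and controls, and reversed Gng7 for the mean effect and Rgs2 between controls, both to 0.01.

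Within a sex and stage, deviations of same-numbered libraries from their group means had r of -0.228 to 0.149. Differently numbered libraries had r of -0.206 to 0.213. With 2 or 3 libraries per group, these values cannot show whether the replicate numbers pair samples. The replicate block gave 2 in proestrus and 2 in males for fold enrichment, and 0, 0, 4, 1 and 2 for the gene body share in diestrus, proestrus, the mean effect, the male minus female effect and controls.

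Leaving out each library of the groups compared in turn gave 1 to 5, 4 to 21 and 1 to 1 gained and 2 to 9, 9 to 16 and 29 to 38 lost in diestrus, proestrus and males. It gave 11 to 20 for diestrus not male, 2 to 9 for diestrus not proestrus, 5 to 10 for male not diestrus, 4 to 9 for proestrus not diestrus and 14 to 22 for proestrus not male controls, and 6 to 14 less and 0 to 3 more often called. Limma counts ran 5 to 28, 1 to 9, 0 to 7, 9 to 25, 2 to 23 and 20 to 38 for diestrus, proestrus, males, the mean effect, the male minus female effect and controls. Those for the gene body share ran 0 to 2, 0 to 5, 0 to 6, 0 to 5 and 1 to 7 for diestrus, proestrus, males, the male minus female effect and controls, and those for peaks per gene 0 to 2.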
